A study of Drosophila melanogaster with 2 samples.

Results

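The chemosensory receptor genes of the fly fall into the odorant receptors (*Or*), the gustatory receptors (*Gr*) and the ionotropic receptors (*Ir*). The members were chosen by name and by measured reads: the name had to be that of an *Or*, *Gr* or *Ir* gene or of *Orco*, and the gene had to have at least 10 reads over both libraries together. Of 186 receptor names in the table of 17559 genes, 71 met this rule, 25 of 60 *Or*, 23 of 60 *Gr* and 23 of 66 *Ir* names. RNA of 10 pooled whole control flies (*w1118*) and of 10 pooled whole flies heterozygous for the mutation labelled Taf1_1 was sequenced, with 1 library per genotype. The mutant chromosome came from a balanced stock in which it also carried alleles of *red* and *e*. The mutants were crossed to the control line and tested as heterozygotes, so that part of their genome came from that stock. Differences in strain background therefore cannot be told apart from the *Taf1* genotype. The age and sex of the flies were not stated in the sources used. In a whole fly, fewer sensory neurons and less receptor RNA per neuron cannot be told apart.

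As background, insects smell and taste with receptor channels in the dendrites of sensory neurons on the antenna, maxillary palp, proboscis, legs and wings. An odorant receptor neuron makes a tuning *Or*, which sets the odors it answers to, and *Orco*, the co-receptor with which tuning *Or* proteins form the channel. Gustatory receptors detect sugars, bitter compounds and carbon dioxide. Ionotropic receptors are related to glutamate receptors and detect acids, amines, salt, temperature and humidity. Many of them need a co-receptor such as *Ir25a*, *Ir8a*, *Ir76b* or *Ir93a*.

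The libraries held 16753242 control reads and 32364756 mutant reads. TMM normalization, a trimmed mean of the log ratios of genes, set the mutant library size to 1.61 times that of control, and levels are given as CPM, reads per 1000000 control reads or their TMM-scaled equivalent. *Taf1*, the mutated gene, had 1352 control reads and 1564 mutant reads, or 80.7 and 58.0 CPM, and the mutant library thus stood at 71.9% of control (95% interval 66.8 to 77.4). The mitochondrial *mt:lrRNA* took 1.90% of control reads and 9.88% of mutant reads, and scaling by total reads moved every log2 ratio by -0.26. Ratios are mutant over control, with exact conditional binomial 95% intervals that cover counting error only. A gene counted as higher or lower in the mutant library if its ratio went beyond 1.5-fold and the interval left out equality. With 1 library per genotype there is no replicate check and no p-value, and a difference is one between these libraries.

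Receptor transcripts were rare in both libraries, and their summed level differed little between them. The 71 genes had 1764 control reads and 2927 mutant reads, which is 105 CPM in control and 109 CPM in the mutant library, a summed log2 ratio of 0.04 (-0.04 to 0.13). As a share of all its reads the mutant value was 90.4. The median receptor had 32 reads over both libraries, the range was 10 to 499 reads, and 47 genes had fewer than 50. Of the 71 genes, 8 were called higher in the *taf1*-mutant library, 10 were called lower and 53 were not called. Among all 12067 genes with at least 10 reads, 12.7% were called higher and 6.22% lower. Among the 3983 genes with 10 to 499 reads, the range of the receptors, 16.7% were higher and 9.77% lower. The receptors stood at 11.3% higher, which is near the share of all genes, and at 14.1% lower. Their median log2 ratio was -0.01 (-0.26 to 0.39 over genes), beside 0.01 over all genes, and 33 of 71 lay above 0. Under scaling to the total of all reads, 6 receptors were higher and 14 lower (all genes 7.04% and 18.8%). When neuron marker genes were set to equality, 18 were higher and 3 lower (all genes 37.2% and 1.1%), and *Gr23a*, *Gr59a*, *Gr59d*, *Gr66a*, *Ir68a*, *Ir75c* and *Or13a* were no longer called lower.

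**Figure D1:**
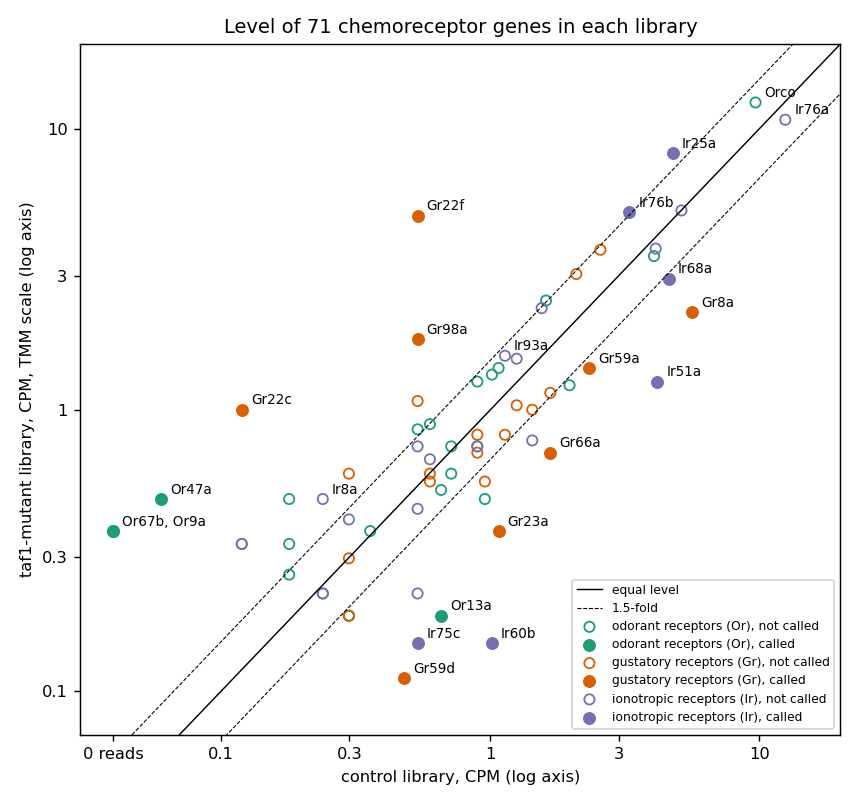
Level of each of the 71 receptor genes in the control library (x axis, CPM, log scale) and in the *taf1*-mutant library (y axis, CPM on the TMM scale, log scale), with 1 point per gene, colored by family and filled where called. The line marks equal levels and the dashed lines 1.5-fold. *Gr22f*, *Gr98a* and *Gr22c* lie far above the line, *Gr8a*, *Ir51a* and *Ir60b* below it, and *Orco* and *Ir76a* are the most abundant receptors in both libraries.

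The rule itself favors genes that are high in the deeper library. With 10 reads asked of a single library, 41 of the 71 genes would pass in each of the libraries, 15 in the mutant library only, 2 in the control library only and 13 in neither. Of the 8 genes called higher, 6 had fewer than 10 control reads, and only *Ir25a* and *Ir76b* had more. The counts and medians over the 71 genes are therefore descriptions. Over all 186 names with no limit on reads, the sums were 1851 and 3078 reads, a log2 ratio of 0.05 (-0.04 to 0.13). Just inside the limit at 10 reads were *Gr21a* (5 control and 5 mutant reads), *Ir52c* (4 and 6), *Or35a* (4 and 6), *Or65a* (5 and 5), *Or67b* (0 and 10), *Or67d* (5 and 5), *Or85e* (3 and 7) and *Or9a* (0 and 10). Just outside it at 9 reads were *Ir52a* (2 and 7), *Ir84a* (3 and 6), *Ir87a* (4 and 5), *Or2a* (1 and 8), *Or42b* (1 and 8) and *Or43a* (4 and 5). Of the names under the limit, 58 were listed at 0 in both libraries. These include receptors known from adult flies, such as *Or59b*, *Or88a* and the sugar receptor genes *Gr64b*, *Gr64c*, *Gr64d* and *Gr64e*. A 0 is therefore not read as lack of expression.

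The co-receptors lay above control in the mutant library in 5 of 5 cases, and 2 of them, *Ir25a* and *Ir76b*, were called higher. Among all 12067 genes with at least 10 reads, 6131 lay above 0 and 12.7% were called higher. *Ir8a*, with 4 control reads, met the rule only through its mutant reads. *Ir25a* (FBgn0031634; BDGP6 2L, 4830846 to 4835300), the most widely used ionotropic co-receptor, had 80 control reads and 220 mutant reads. Its level was 4.78 CPM (95% Poisson interval 3.79 to 5.94) in control and 8.16 CPM (7.12 to 9.31) in the mutant library, a 1.71-fold difference (1.32 to 2.24). *Ir76b* (FBgn0036937; 3L, 20108484 to 20111534), a co-receptor for salt, amino acids and amines, had 55 and 136 reads. It went from 3.28 CPM (2.47 to 4.27) to 5.05 CPM (4.23 to 5.97), or 1.54-fold (1.12 to 2.14), just past the limit. The Poisson intervals of the libraries did not overlap for *Ir25a* and overlapped slightly for *Ir76b*.

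*Orco* (FBgn0037324; 3R, 5407183 to 5412406) had 162 control reads and 334 mutant reads, or 9.67 CPM (8.24 to 11.3) and 12.4 CPM (11.1 to 13.8). The 1.28-fold ratio (1.06 to 1.56) left out equality but stayed within 1.5-fold, so *Orco* was not called. *Ir93a*, which acts with *Ir25a* in temperature and humidity sensing, had 19 and 42 reads (1.37-fold, 0.782 to 2.50). *Ir8a*, the co-receptor of acid-sensing neurons, had 4 and 13 reads (2.02-fold, 0.624 to 8.50). For both genes the interval held equality and reached past 1.5-fold, so neither a higher nor an equal level can be read from these counts. Together the 5 co-receptors had 320 and 745 reads, a log2 ratio of 0.53 (0.34 to 0.73). With scaling by total reads *Ir25a* was at a log2 ratio of 0.51 and *Ir76b* at 0.35, and 0 co-receptors were called. With the values as deposited *Ir76b* was at 0.58, just within the limit, and 1 was called.

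Summed tuning receptors were set beside their co-receptors. All *Ir* names other than the 4 *Ir* co-receptors had 713 control reads and 950 mutant reads, a log2 ratio of -0.27 (-0.41 to -0.13), while the 4 co-receptors had 158 and 411. Without *Ir51a*, an annotated pseudogene, the other *Ir* names were at -0.18 (-0.32 to -0.03). The *Ir* co-receptors thus had 0.222 reads per read of the other *Ir* genes in control and 0.433 in the mutant library. *Orco* had 0.485 reads per read of the other *Or* names in control and 0.577 in the mutant library. These other *Or* genes summed to 334 and 579 reads (0.11, -0.09 to 0.31), an interval that overlaps that of *Orco*. These within-library ratios do not depend on the scaling of the libraries.

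Among the odorant receptors, 3 of 25 were called higher and 1 was called lower (12% and 4%, all genes 12.7% and 6.22%). Their median log2 ratio was 0.36 (-0.26 to 0.56 over genes). That median was 0.05 without genes whose exons overlap another gene, 0.20 with a limit of 20 reads, 0.22 relative to genes of like length and 0.22 without *Orco*. The 3 higher genes rested on few reads. *Or67b* and *Or9a* had 0 control reads and 10 mutant reads each, which is at least 2.07-fold higher against a floor of 3 control reads. The lower end of the 95% interval, which also counts the error of the mutant reads, was 1.39-fold. An exon stretch of 125 nt of *Or67b* overlaps *CG8336* on the opposite strand (1038 and 1487 reads). *Or47a*, whose neurons answer to fruit esters, had 1 control read and 13 mutant reads (8.08-fold, 1.21 to 343), and 163 nt of its exons overlap *Cpr47Ea* on the opposite strand (129 and 173 reads). *Or13a* was the gene called lower, with 11 and 5 reads (0.283-fold, 0.0770 to 0.882). The calls in this family were made at 10 to 16 reads, where the intervals span many-fold.

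The *Or* genes with more reads were not called. *Or43b*, an antennal receptor, followed *Orco* with 68 and 95 reads (0.868-fold, 0.629 to 1.20). However, 40.7% of its exon length overlaps exons of *Cul1* on the opposite strand, a gene with 3483 and 4434 reads. *Or23a* had 27 and 66 reads (1.52-fold, 0.957 to 2.47) and shares 69 nt of exon with *Prosbeta4R2*. *Or63a*, known from larval olfactory neurons, had 33 and 33 reads (0.622-fold, 0.372 to 1.04). *Or82a*, a receptor for geranyl acetate, had 18 and 38 reads (1.31-fold, 0.731 to 2.44), and *Or83c*, a farnesol receptor, had 17 and 36 (1.32-fold, 0.720 to 2.50). *Or56a*, the geosmin receptor, had 15 and 34 reads (1.41-fold, 0.747 to 2.78). These intervals held equality and also reached past 1.5-fold, upward for *Or23a*, *Or82a*, *Or83c* and *Or56a* and downward for *Or43b* and *Or63a*.

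Receptors for fly pheromones had few reads. *Or47b*, which detects fly-derived fatty acid odors and promotes courtship, had 9 and 23 reads (1.59-fold, 0.708 to 3.90). *Or67d*, the receptor for the male pheromone cis-vaccenyl acetate, had 5 and 5 reads, *Or65a* had 5 and 5, and *Or65c* had 6 and 10. Of the 6 genes of this group, 4 had 10 reads or more and 0 were called. The adjacent genes *Or22a* and *Or22b*, which are made in the same ester-sensing neurons, had 16 and 13 reads and 10 and 24 reads. Their ratios were 0.505 (0.223 to 1.12) and 1.49 (0.688 to 3.49), with intervals that overlap. Of the 12 receptors assigned to the larva 3 had 10 reads or more, and of the 7 assigned to the maxillary palp 1 did, *Or85e*.

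The remaining *Or* genes had 35 reads or fewer, and their intervals all held equality. *Or92a*, the diacetyl receptor, had 15 and 20 reads, *Or59a* 12 and 20, and *Or85f*, a receptor for odors of parasitoid wasps, 12 and 16. The larval receptors *Or74a* and *Or85c* had 11 and 14 and 3 and 13 reads, and *Or7a* had 3 and 9. Of these, *Or85c* (2.69-fold, 0.740 to 14.7) and *Or7a* (1.86-fold, 0.465 to 10.7) were past 1.5-fold.

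Among the gustatory receptors, 3 of 23 were called higher and 5 lower (13.0% and 21.7%, all genes 12.7% and 6.22%). *Gr22f* had the widest ratio of the 13 receptors with 100 reads or more, a class that it reached only through its mutant reads. *Gr22f* (FBgn0041249; 2L, 1755253 to 1756451) had 9 control reads and 132 mutant reads. It went from 0.537 CPM (0.246 to 1.02) to 4.90 CPM (4.10 to 5.81), or 9.12-fold (4.66 to 20.4), and it had the third most reads of the *Gr* genes. *Gr22c* (FBgn0265138; 2L, 1790617 to 1791823), of the same gene cluster, had 2 and 27 reads (8.39-fold, 2.11 to 72.8). The genes next to *Gr22c* had too few reads to show whether they differed. *Gr22d* had 2 and 1 reads, *Gr22b* 1 and 1, *Gr22a* 0 and 1, and *Gr22e* was listed at 0 in both. The nearest coding genes on the sides of *Gr22f* were *CG17648*, with 195 and 470 reads (log2 ratio 0.58, within the 1.5-fold limit), and *CG17650*, with 169 and 258 (-0.08). The other gene called higher was *Gr98a* (FBgn0039520; 3R, 27487927 to 27489968), with 9 and 48 reads (3.31-fold, 1.61 to 7.68), while *Gr98b*, *Gr98c* and *Gr98d* were listed at 0 in both. Roles for *Gr22f*, *Gr22c* and *Gr98a* are not assigned here.

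Of the *Gr* genes called lower, *Gr8a* (FBgn0030108; X, 9227137 to 9228827), needed for the taste of the plant toxin L-canavanine, had the most reads. It had 94 control reads and 60 mutant reads, or 5.61 CPM (4.53 to 6.87) and 2.23 CPM (1.70 to 2.87), a ratio of 0.397 (0.282 to 0.554). *Gr66a*, the general marker of bitter-sensing neurons, had 28 and 19 reads (0.422-fold, 0.223 to 0.783). *Gr59a* had 39 and 38 reads (0.606-fold, 0.377 to 0.972), *Gr23a* 18 and 10 (0.345-fold, 0.142 to 0.789) and *Gr59d* 8 and 3 (0.233-fold, 0.0398 to 0.971). The intervals of *Gr59a* and *Gr59d* ended just short of equality. The genes *Gr59e* (28 and 31 reads) and *Gr59f* (19 and 22) were not called.

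The other genes of the list of broad bitter receptors, to which *Gr66a* belongs, were not called. That list does not hold *Gr8a* or the *Gr22*, *Gr59* and *Gr98* genes. *Gr32a*, which also keeps males from courting males, had 35 and 82 reads (1.46-fold, 0.969 to 2.23), and *Gr33a* had 5 and 8 (0.994-fold, 0.287 to 3.86). The intervals of *Gr66a* and *Gr32a* do not overlap. The difference between them was not tested. *Gr39a* was listed at 0 in both libraries and *Gr89a* had 0 and 1 reads.

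None of the 4 sugar receptors with 10 reads or more was called. *Gr61a*, a glucose receptor, had 43 and 100 reads (log2 ratio 0.53, 0.002 to 1.08), within the 1.5-fold limit. *Gr64f*, which acts with other sugar receptors, had 21 and 28 (0.829-fold, 0.454 to 1.54), and *Gr64a* had 15 and 22 (0.912-fold, 0.452 to 1.89). *Gr43a*, a fructose sensor of taste neurons and brain, had 10 and 16 reads (0.994-fold, 0.424 to 2.45), and *Gr5a*, a trehalose receptor, had 3 and 3. The group summed to 89 and 166 reads (log2 ratio 0.21, -0.17 to 0.60). The carbon dioxide receptor is made of *Gr21a* and *Gr63a*, which had 5 and 5 and 16 and 15 reads. As a pair they had 21 and 20 reads, a log2 ratio of -0.74 (-1.72 to 0.20) that was not distinguishable from equality at this depth. *Gr28a* and *Gr28b*, the latter with roles in heat and light sensing, had 39 and 46 reads together (-0.44, -1.10 to 0.21). The other *Gr* genes that were not called were *Gr97a* with 9 and 29 reads (2.00-fold, 0.923 to 4.81), *Gr47b* with 5 and 16 (1.99-fold, 0.696 to 6.94) and *Gr39b* with 10 and 15 (0.932-fold, 0.392 to 2.32).

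**Figure D2:**
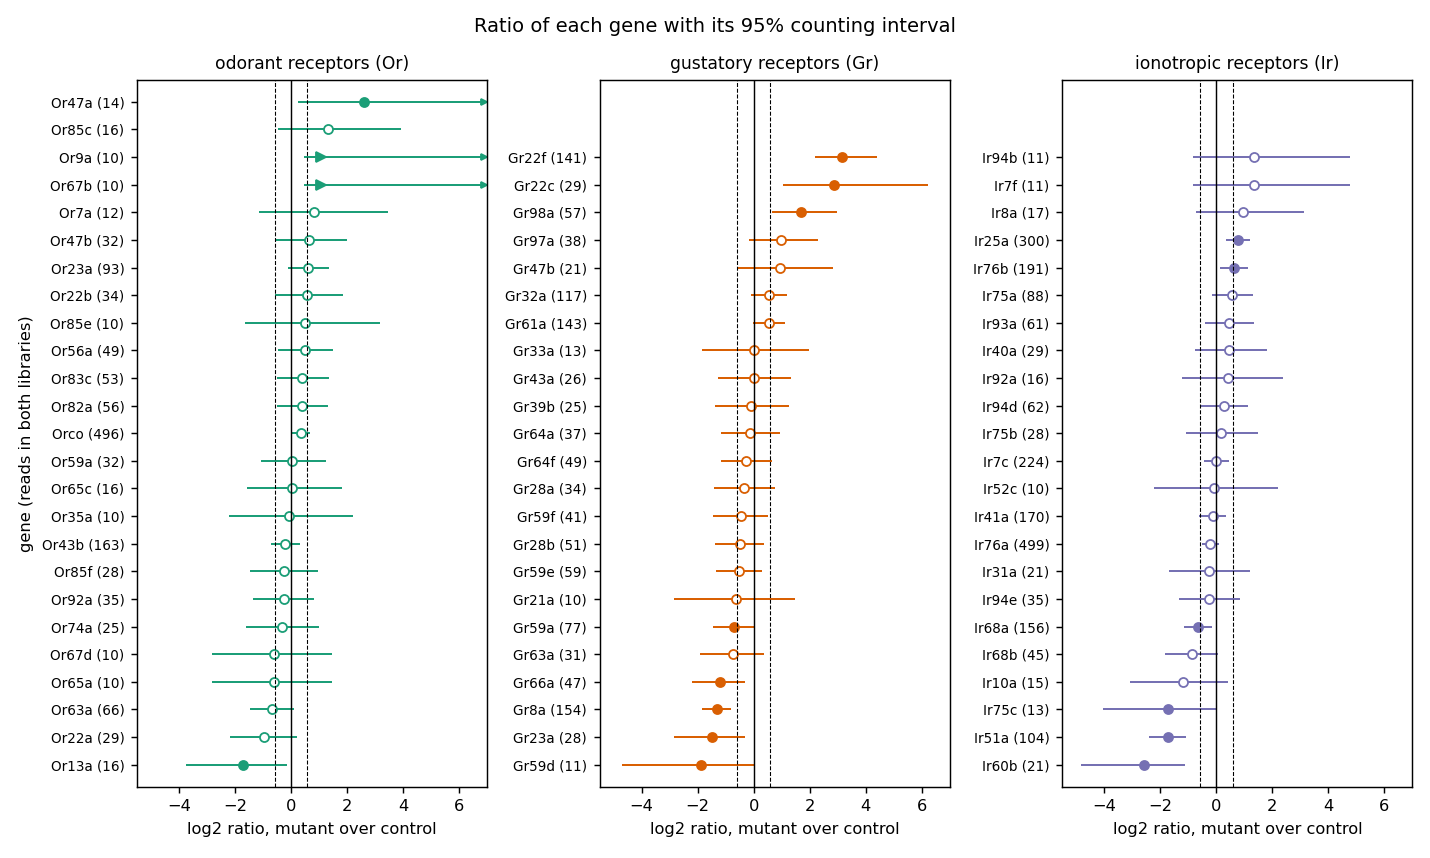
Log2 ratio of mutant over control (x axis) for each receptor, with its reads over both libraries in brackets, in 1 panel per family. Points are ratios, filled where called, bars are 95% counting intervals, triangles mark genes with 0 control reads, drawn at 2.07-fold against a floor of 3 reads, arrowheads mark bars that run on, and dashed lines mark 1.5-fold. On the TMM scale the bars hold equality for 51 of the 71 genes, and 2 genes, *Ir7c* and *Ir76a*, have bars wholly within 1.5-fold.

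Among the ionotropic receptors, the co-receptors *Ir25a* and *Ir76b* were called higher and 4 other genes lower, out of 23 (8.70% and 17.4%, all genes 12.7% and 6.22%). *Ir76a* (FBgn0260874; 3L, 19799278 to 19803427), an amine receptor of the antenna, had the most reads of all 71 genes, 209 in control and 290 in the mutant library. Its level was 12.5 CPM (10.8 to 14.3) and 10.8 CPM (9.56 to 12.1), and the ratio of 0.862 (0.719 to 1.04) lay wholly within 1.5-fold. *Ir7c*, a receptor for high salt, had 86 and 138 reads and a ratio of 0.997 (0.756 to 1.32), also within 1.5-fold. *Ir41a*, a polyamine receptor, had 69 and 101 reads (0.910-fold, 0.663 to 1.25). For *Ir76a* and *Ir7c* the counts were deep enough to bound a difference between the libraries on the TMM scale only. Scaling by total reads moves these ratios and their intervals by -0.26 in log2, and neuron marker genes at equality by 0.46.

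*Ir51a* (FBgn0033997; 2R, 15204654 to 15206334), which the BDGP6 annotation lists as a pseudogene, had 70 control reads and 34 mutant reads. It went from 4.18 CPM (3.26 to 5.28) to 1.26 CPM (0.874 to 1.76), or 30.2% of control. *Ir60b* (FBgn0259185; 2R, 24515685 to 24517458), made in a pharyngeal neuron that limits sucrose intake, had 17 and 4 reads (0.146-fold, 0.0358 to 0.448). *Ir68a*, a receptor for moist air, had 77 and 79 reads (0.638-fold, 0.460 to 0.884). *Ir40a*, a receptor for dry air, had 9 and 20 reads (1.38-fold, 0.601 to 3.44) and was not called. The acid receptor gene *Ir75c* had 9 and 4 reads (0.276-fold, 0.0622 to 0.990). The genes beside it, *Ir75a* for acetic acid and *Ir75b*, had 26 and 62 (1.48-fold, 0.924 to 2.44) and 10 and 18 (1.12-fold, 0.490 to 2.71). The 9 antennal *Ir* genes with 10 reads or more summed to a log2 ratio of -0.19 (-0.37 to -0.01) and the 10 other *Ir* genes to -0.48 (-0.73 to -0.23). Without *Ir51a* the second sum was -0.19 (-0.47 to 0.09), an interval that holds equality.

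The other *Ir* genes were not called. *Ir94d*, with 21 and 41 reads (1.21-fold, 0.701 to 2.16), shares 24.1% of its exon length with *CG17380* (92 and 271 reads) on the opposite strand. *Ir68b* had 24 and 21 reads (0.544-fold, 0.288 to 1.02), and was called lower with the values as deposited, with total reads and against genes of like length. *Ir94e* had 15 and 20 reads, *Ir31a* 9 and 12, and *Ir92a*, an amine receptor, 5 and 11. *Ir10a* had 9 and 6 reads (0.414-fold, 0.121 to 1.30), past 1.5-fold downward with an interval that held equality. *Ir7f* and *Ir94b* each had 2 and 9 reads (2.80-fold, 0.579 to 26.6), past 1.5-fold upward with an interval that held equality.

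Genes listed as working with the receptors showed no common direction, while 5 of 11 neuron genes were called lower. Of all 12067 genes with at least 10 reads, 12.7% were called higher and 6.22% lower. Of 17 measured genes listed for olfactory neurons and support cells, 0 were higher and 2 were lower (0% and 11.8%, median 0.05). The lower genes were *acj6* (310 and 288 reads, log2 ratio -0.79) and *pdm3* (998 and 1027 reads, -0.64), transcription factors that set which odorant receptors a neuron makes. In whole-fly RNA the neurons that these reads came from cannot be told, so they are not read as values of olfactory neurons. The odorant-binding protein genes *lush* (127 and 294 reads, 0.52) and *Obp83a* (1004 and 2163, 0.42), which mark the antenna, were within 1.5-fold, and *Snmp1*, which the pheromone neurons need, was listed at 0 in both. Of 13 taste and contact genes 3 were higher and 2 lower (23.1% and 15.4%, median 0.13). *ppk19* (5 and 23 reads) and *Obp19b* (310 and 853, 0.77) were among the higher. The lower genes were *ppk23* (63 and 62 reads, -0.70) and *ppk29* (27 and 19, -1.17), channel subunits of the neurons that taste pheromones. Of 13 sensory cilium genes 1 was higher, *Oseg4* at 0.85, and 1 lower, *Oseg6* at -0.61 (7.69% each, median -0.04).

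None of the 11 neuron genes was called higher and 5 (45.5%) were lower, beside 12.7% and 6.22% of all genes. The list had a median of -0.52 and summed to 46334 and 54076 reads (-0.46). The sodium channel gene *para* was at -1.05 and the GABA receptor gene *Rdl* at -0.86, the choline acetyltransferase gene *ChAT* at 0.05 and the glutamate transporter gene *VGlut* at 0.25, while the pan-neuronal marker *elav* and the genes *Syx1A* and *VAChT* were listed at 0 in both libraries. Enteroendocrine cells also make some *Gr* genes. Their list had 1 higher, *CCHa2* at 1.26, and 1 lower, *pros* at -1.06, of 9 (11.1% each, median 0.21). The testis list had 2 higher, *Mst87F* at 0.97 and *Mst84Db* at 0.93, and 0 lower of 22 (9.09% and 0%). Its median was -0.03, with 11 of 22 above 0. Of the 3 yolk genes *Yp1* was lower (31 and 14 reads, -1.79), and *Yp2* (-0.29) and *Yp3* (-0.02) were not called. The part of these cell types in the receptor values was not tested.

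Ratios also moved with exon length. With all genes in 10 equal bins of exon length, the median log2 ratio was 0.16 in the bin of the shortest genes and -0.27 in that of the longest. The neuron genes were long, at least 4011 nt of exon, and relative to genes of like length their median was -0.28. The receptors lay in bins 3 to 9, whose medians ran from 0.16 to -0.13. Relative to genes of like length, 8 receptors were higher and 12 lower, with the 18 calls kept and *Ir68b* and *Or63a* added as lower.

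**Figure D3:**
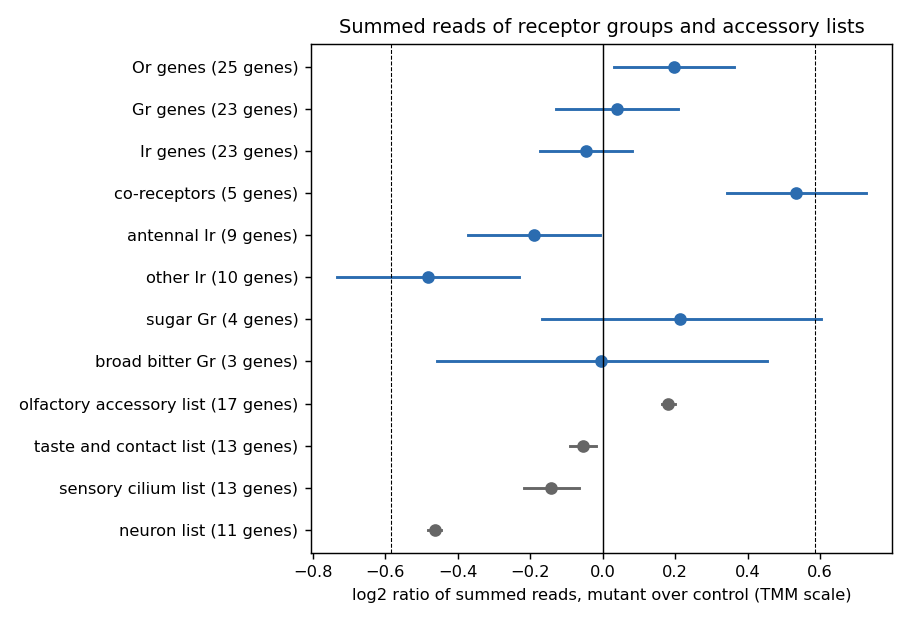
Log2 ratio of summed reads, mutant over control (x axis), for receptor families and groups (blue) and for accessory and neuron gene lists (grey). Bars are 95% counting intervals and dashed lines mark 1.5-fold. Of the sums drawn, which leave out the carbon dioxide pair, the co-receptors lie highest at 0.53, and the other *Ir* genes at -0.48 and the neuron list at -0.46 lie lowest. The olfactory and taste sums rest largely on 1 gene each. *Arr1* gave 20930 of the 37757 control reads of the olfactory list, and *norpA* 5113 of the 10088 of the taste list. In whole flies the organ these reads came from is not known. The sums are therefore not read as levels of olfactory or taste organs.

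By family, the summed log2 ratio was 0.20 (0.03 to 0.36) for *Or*, 0.04 (-0.13 to 0.21) for *Gr* and -0.04 (-0.17 to 0.08) for *Ir*. *Orco* held many of the *Or* reads, and without it the *Or* sum was 0.10 (-0.10 to 0.31). Without *Gr8a*, the *Gr* gene with the most reads, the *Gr* sum was 0.25 (0.06 to 0.43). That sum still held *Gr22f*, with 9 control and 132 mutant reads, and 7 of the 23 *Gr* genes lay above 0. With scaling by total reads the *Or* sum turned to -0.068. The medians over genes were 0.36 for *Or*, -0.27 for *Gr* and -0.004 for *Ir*. For *Gr* the sum and the median differ in sign, and *Gr22f* alone gave 132 of 772 mutant reads and 9 of 467 control reads.

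Compared per length of annotated exon, the receptors spanned more than an order of magnitude. *Orco* ranked first at 5.85 CPM per kb over both libraries (5.34 to 6.38), followed by *Ir76a* at 5.41 (4.95 to 5.91), and these levels did not differ beyond counting error (ratio 1.08, 0.952 to 1.23). *Ir76a* stood 1.91-fold (1.58 to 2.32) above *Gr22f*, the next gene, at 2.84. *Or43b* (2.64), *Gr8a* (2.33), *Ir7c* (2.17), *Ir25a* (1.91), *Ir76b* (1.89) and *Gr61a* (1.75) followed, and no neighbors in this part of the order differed beyond counting error. *Gr21a* was lowest at 0.103 CPM per kb. Between the libraries, the place of *Gr22f* rested on the mutant library, with 0.472 CPM per kb in control and 4.31 in the mutant library.

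**Figure D4:**
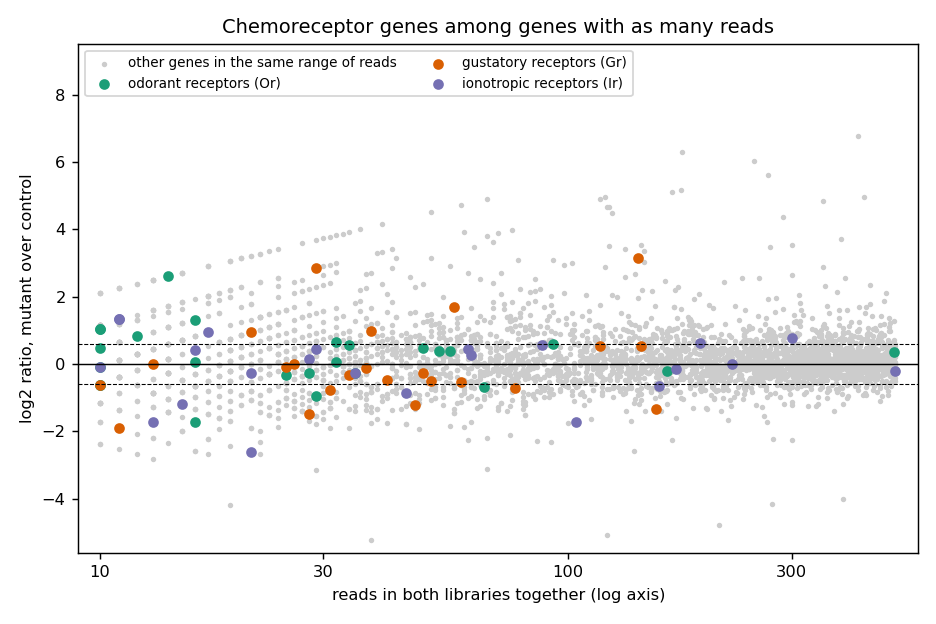
Log2 ratio of mutant over control (y axis) against reads in both libraries together (x axis, log scale) for the receptors and for the other genes with 10 to 499 reads (grey). Genes with 0 reads in a library are drawn against a floor of 3 reads, and dashed lines mark 1.5-fold. The receptors lie within the spread of other genes with as many reads, which widens toward 10 reads.

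Calls occurred on each of the arms and in each range of reads. By arm, 1 gene was higher and 2 lower of 8 on X, 3 and 1 of 16 on 2L, 1 and 4 of 15 on 2R, 2 and 3 of 18 on 3L, and 1 and 0 of 14 on 3R. Over all genes the share per arm was 11.3% to 14.3% higher and 4.30% to 7.72% lower. On 3R, where *Taf1* lies, 11 of the 14 receptors had ratios above 0 (median 0.41), beside 1483 of the 3002 genes of that arm (median -0.01). The receptors on X had the same median of 0.41, with 4 of 8 above 0. The summed log2 ratio of receptors was 0.41 on 3R, 0.62 on 2L and -0.43 on X. A link to the place of *Taf1* was not tested. By reads, 4 genes were higher and 6 lower of 47 with fewer than 50 reads, 1 and 1 of 11 with 50 to 99, and 3 and 3 of 13 with 100 or more. Of the 36 nearest coding neighbors of the 18 called genes, 26 had 10 reads or more and 2 were called, beside 18.9% of all genes called in either direction. They were *CG14185* beside *Ir76b* (8 and 31 reads, higher) and *mmd* beside *Or13a* (1481 and 1498 reads, lower). Exons of 10 receptors overlap those of another gene, among them *Gr8a*, *Or47a*, *Or67b*, *Gr32a* and *Ir76a*. Whether the counting used strand is not given in the sources used here, so reads of such pairs cannot be told apart. The overlap is 2.12% of the exon length in *Gr8a* and 14.1% in *Ir76a*.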

How the data were processed

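Per the labels, RNA was prepared with a stranded mRNA kit and the submitters' processing notes name the genome build BDGP6. Sequencing was on an Illumina HiSeq. For the aligner, the counter and the annotation release, nothing is stated in the sources used here. In the deposited table each value is a signal: the authors' read count of a gene over a factor shared by its library. Division by the smallest positive value of each column gave whole reads for 100% of values (tolerance 0.001), and these recovered reads replaced the deposited values. A count model leaves 0 residual degrees of freedom here, so no test was fitted. Scaling used edgeR 4.0.16 (TMM) and DESeq2 1.42.0 (median of ratios) in R 4.3.3, and the rest Python 3.11.15 with scipy 1.17.1. The prior count was 0.5, split by library size. In CPM, 3 reads are 0.179 in control and 0.111 in the mutant library. Reads carry no molecular identifiers, so intervals do not count independent molecules. Names were matched to the BDGP6 annotation (71 of 71 receptors, 17314 of 17559 genes), partly through RefSeq synonyms. Members, gene groups and marker lists were chosen with earlier results of these data known. Genes were named as co-receptors and main taste receptors, the 6 of each family with the most reads, called genes, genes at 0 in a library, genes at the limit of reads, and the outermost called genes of each list. Others were named after their values were seen. Calculations were tested on simulated data. Alternatives were other scalings, length, limits on reads, prior count, fold limits and left-out genes.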

Additional observations from a re-analysis of the deposited data

How the results depend on the processing

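Median-of-ratios scaling, upper-quartile scaling and TMM without mitochondrially encoded genes changed no count of called receptors, and the 18 calls were kept in all of them. Scaling by total reads kept 6 of 8 higher and 10 of 10 lower calls, with 0 co-receptors called, and moved the summed log2 ratios to -0.068 for *Or* (reversed), -0.22 for *Gr* and -0.31 for *Ir*, and the *Ir* median to -0.27. The median of all genes then moved to -0.25. With neuron marker genes at equality (all genes at 0.47), 18 receptors were higher, 3 lower and 4 co-receptors higher. The summed ratios were then 0.66 for *Or*, 0.50 for *Gr* and 0.42 for *Ir*, and the medians 0.82 for *Or*, 0.19 for *Gr* (from -0.27, a change of sign) and 0.46 for *Ir*. *Gr8a*, *Ir51a* and *Ir60b* were the genes lower under each scaling and against genes of like length. The genes higher in all of these were *Gr22f*, *Gr22c*, *Gr98a*, *Or47a*, *Or67b* and *Or9a*. These 6 genes each had fewer than 10 control reads, so they met the rule only through their mutant reads. *Or47a*, *Or67b* and *Or9a* also had fewer than 20 reads over both libraries. The values as deposited left 1 co-receptor called and a fold limit of 2 left 0. A limit of 20 reads left 5 genes higher, and a limit of 50 left 4 higher and 4 lower, because fewer genes were counted. The *Gr* median was 0.01 with a limit of 50 reads. Without *Gr8a* the *Gr* sum was 0.25, and it still held the 132 mutant reads of *Gr22f*. Without *Ir51a*, an alternative chosen after seeing the data, the sum of the other *Ir* genes moved from -0.48 to -0.19. The cause of the other moves was not tested beyond their construction. No paired analysis was possible because each genotype has 1 library, and no replicate could be left out.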
